A study of Mus musculus with 40 samples.

Results

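H19 and 3 protein-coding genes that share its fetal history in the liver, Igf2, Afp and Gpc3, were taken by name from the expression table and followed across the livers and intestines of mice with a shortened bowel. Of these 4 genes, H19 and Afp were among the 15958 genes examined, and Igf2 and Gpc3 were not analysed here. H19 was chosen by its measured liver values, higher after resection and lower with the drug, so its differences between liver groups are given as a description and without a test. Afp in every tissue, H19 in the intestine, and relations of H19 within a single group of livers were not used in that choice and were tested.

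All mice were wild type C57BL/6 males, 8 weeks old at surgery. One set had a sham operation and daily vehicle (sham). A second had 50 to 60% of the small bowel removed, by the sample labels, and daily vehicle (SBR vehicle); the study's text gives a larger share. The third had the same resection and daily WUSTL0717 at 30 mg/kg (SBR WUSTL0717), an agonist of the liver X receptors (LXR), the sterol-sensing nuclear receptors, that is largely retained in the gut. Dosing began 3 weeks after surgery and lasted 7 weeks, and no sham group received the drug. Bulk RNA from which ribosomal RNA had been removed was sequenced from liver (5 sham, 8 SBR vehicle and 5 SBR WUSTL0717 libraries) and from duodenum and ileum (3, 4 and 4 libraries each). Nothing in the labels says whether libraries of one group came from separate cages or surgery days, so a p-value here measures only the spread between these libraries.

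H19 is an imprinted long noncoding RNA. It is transcribed from the maternal chromosome in a domain shared with Igf2, the paternally expressed growth factor, and the methylation of one control region between them decides which of the pair is used. Both are abundant in the fetal liver and are silenced within weeks of birth, as are Afp, the albumin-like carrier protein of fetal plasma, and Gpc3, a cell-surface proteoglycan. Zhx2 and Zbtb20 are repressors through which the mouse liver is known to shut down this program, and the return of its members is familiar from regenerating, injured and tumorous liver.

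In the GRCm38 build H19 lies on the minus strand of chromosome 7, at 142575529 to 142578143, and is annotated as a long intergenic noncoding RNA with 7 transcripts of 2 to 5 exons. Afp lies on the plus strand of chromosome 5, at 90490737 to 90508907, with transcripts of up to 15 exons, within a family cluster in which Alb and Afm start 29.8 kb and 28.2 kb away. H19 is also the host of a microRNA, miR-675, whose hairpin falls within an exon of 3 of the 7 transcripts, in exon 1 of a pair with 5 exons and exon 2 of one with 2 exons. The hairpin is shown because it is the one part of H19 with a defined product of its own. It sits at chr7:142577064-142577147 on the minus strand (RefSeq, GRCm38.p6), and both mature arms are in capitals.
mir-675 hairpin: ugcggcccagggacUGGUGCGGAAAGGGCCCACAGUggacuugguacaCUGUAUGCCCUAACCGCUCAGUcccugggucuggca

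Capitals in the mature arms mark the seed, bases 2 to 8, by which a microRNA finds its targets. The 5p arm lies at chr7:142577112-142577133 and the 3p arm at chr7:142577078-142577099, and neither seed was shared with another of the 1738 mature mouse microRNAs in the same table.
miR-675-5p: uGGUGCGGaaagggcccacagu
miR-675-3p: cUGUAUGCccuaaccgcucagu
The libraries were made from long RNA and the mature arms were not analysed here, so the values below are those of the H19 transcript as a whole. How the reads were assigned to strands is not given in the sources used here, and reads from a transcript antisense to H19 would be counted with it if strand was ignored.

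Values are log2 TPM (transcript abundance scaled to gene length and library size) after an adjustment by the authors that aligned the intestinal batch with the liver batch. That step can move and rescale each gene, and the intestinal enzyme gene Sis stood at 4.74 ± 0.01 (SD, n = 8) in SBR vehicle livers. A level is then no check of the labelled tissue by its markers. It also cannot be compared between organs or between genes, and the comparisons below are between groups of one tissue, as differences on this adjusted log2 scale. The files hold no counts, so the depth behind a value is unknown. The library of SBR vehicle replicate 2 stood apart from the others, with Alb at 8.16 against 9.01 to 9.87 in the remaining livers.

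H19 was near 0 in every sham liver, higher in every SBR vehicle liver, and between the 2 in most treated livers. Sham values were -0.01, -0.17, -0.09, -0.08 and -0.11, with a mean of -0.09 ± 0.06 (SD, n = 5). The SBR vehicle livers, replicates 1 to 8, were at 2.02, 2.27, 3.27, 1.76, 2.84, 3.68, 4.17 and 1.63, with a mean of 2.70 ± 0.94 (SD, n = 8). All 8 lay above the highest sham liver, and they ranged over 2.54 among themselves where the sham livers ranged over 0.16. The SBR WUSTL0717 livers were at 0.41, 0.49, 0.71, 1.98 and 0.75, with a mean of 0.87 ± 0.64 (SD, n = 5). All 5 were above every sham liver, and 4 of them were below every SBR vehicle liver. The overlap between treated and untreated resected mice came from treated replicate 4 alone, at 1.98, which exceeded 2 of the 8 SBR vehicle livers.

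**Figure D1:**
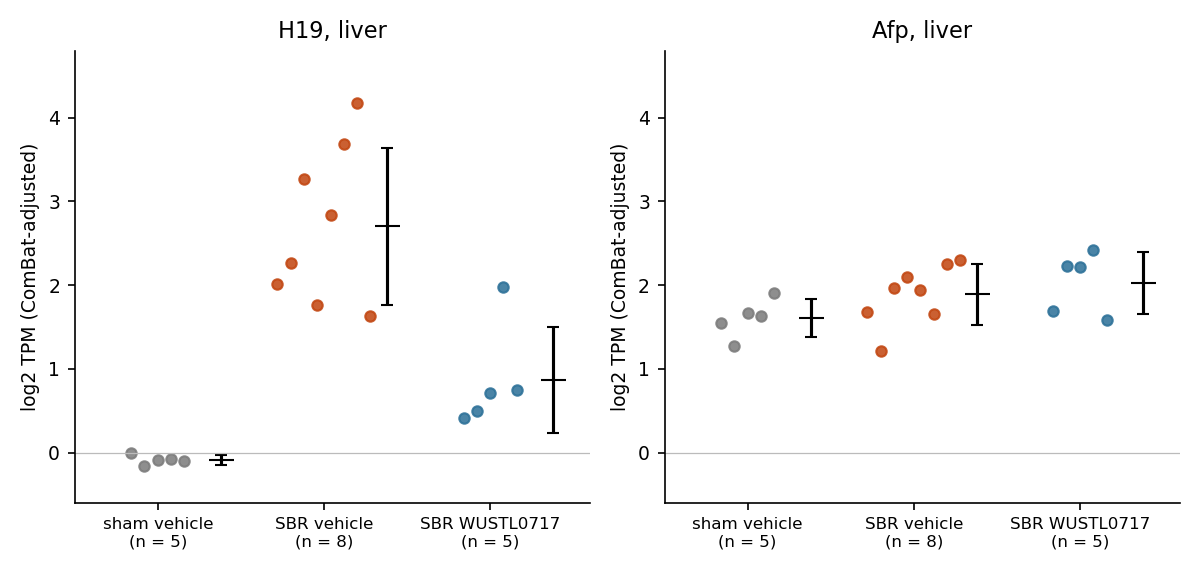
H19 and Afp in 18 livers. Each point is one library (log2 TPM, adjusted for batch by the authors), with the group mean and SD in black. H19 separates sham from SBR vehicle livers, with the treated livers between them apart from one at 1.98, while the Afp groups overlap.

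As log2 differences, H19 was 2.80 higher in SBR vehicle than in sham livers, 1.84 lower in SBR WUSTL0717 than in SBR vehicle livers (a difference of -1.84), and 0.96 higher in SBR WUSTL0717 than in sham livers. Among the 15901 genes tested in liver, its difference after resection was number 17 in size of the 12588 that were positive, and its difference with the drug was number 2 of the 7184 that were negative. The values that chose H19 are the same ones, so these ranks are a description. Groups that did not overlap were common in these data: 17.2% of genes had none between SBR vehicle and sham, 28.1% had none between SBR WUSTL0717 and sham, and 1.54% had none between the resected groups.

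Because sham H19 sits at the floor of the scale, no fold change is given, and the size of the difference depends on what is added before the logarithm. With pseudocounts of 0.1 and 5 on the back-transformed values it was 5.76 and 1.13 after resection, and -2.72 and -0.89 with the drug. Leaving out SBR vehicle replicate 2 gave 2.86 and -1.90. Leaving out treated replicate 4 gave -2.11 with the drug, and the other 4 treated livers had a mean of 0.59 ± 0.16 (SD, n = 4).

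Markers of some other liver cells shifted across the same groups as H19. Of 7 measured cholangiocyte markers, the genes of bile duct cells, all 7 were higher in SBR vehicle than in sham livers by limma at an adjusted p under 0.05, and 5 were lower with the drug, or 1 without treated replicate 1, 2 or 3. In the first comparison 41.9% of all genes passed (37.4% higher and 4.47% lower), and in the second 4.1% passed (1.44% higher and 2.66% lower). Centring each library on its median turned the split of higher and lower genes from 5953 and 710 to 3245 and 4580 after resection, and from 229 and 423 to 1830 and 1303 with the drug. The summed level of these markers ran from 66.3 to 169 in sham, from 374 to 765 in SBR vehicle and from 212 to 499 in treated livers. None was at 0 in any group. Of 9 markers of stellate cells and fibroblasts, the collagen-making cells of the liver, 8 were higher after resection and 4 were lower with the drug, and their sum ran from 128 to 199, from 396 to 691 and from 249 to 460 in the same order. All 9 proliferation genes were higher after resection, and none passed in either direction with the drug. Their sum ran from 34.2 to 37.3, from 77.8 to 168 and from 45.3 to 144. Treated replicate 4, which had the highest H19 of the treated livers, also had the highest cholangiocyte, fibroblast and proliferation sums of that group, 499, 460 and 144. Of 8 hepatocyte markers none was higher and 4 were lower after resection. Among those 4, Serpina1a, an antitrypsin, differed by -0.78 (SE 0.14, adjusted p = 0.000229 by limma). The summed level of the 8 hepatocyte markers overlapped between groups, with medians of 19414.6 in sham, 19392.7 in SBR vehicle and 18741 in treated livers. That sum ran from 16333.5 to 21441.6, from 10744.7 to 21472.7 and from 17960.9 to 26511.4 in the same order. Fewer macrophage and endothelial markers passed, 2 higher and 1 lower of 6 (median 0.03) and 1 higher of 5 (median 0.21) after resection, against 0.25 for all genes. Leaving out SBR vehicle replicate 2 took the endothelial count to 3, and replicate 3 to 2. The hepatocyte count of 4 was 1 without sham replicate 1, 4 or 5, 2 without sham replicate 3, and 6 after centring. The part of these shifts in the H19 values was not tested, and in bulk RNA a change in the number of cells of a type cannot be told apart from a change in RNA per cell.

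**Figure D2:**
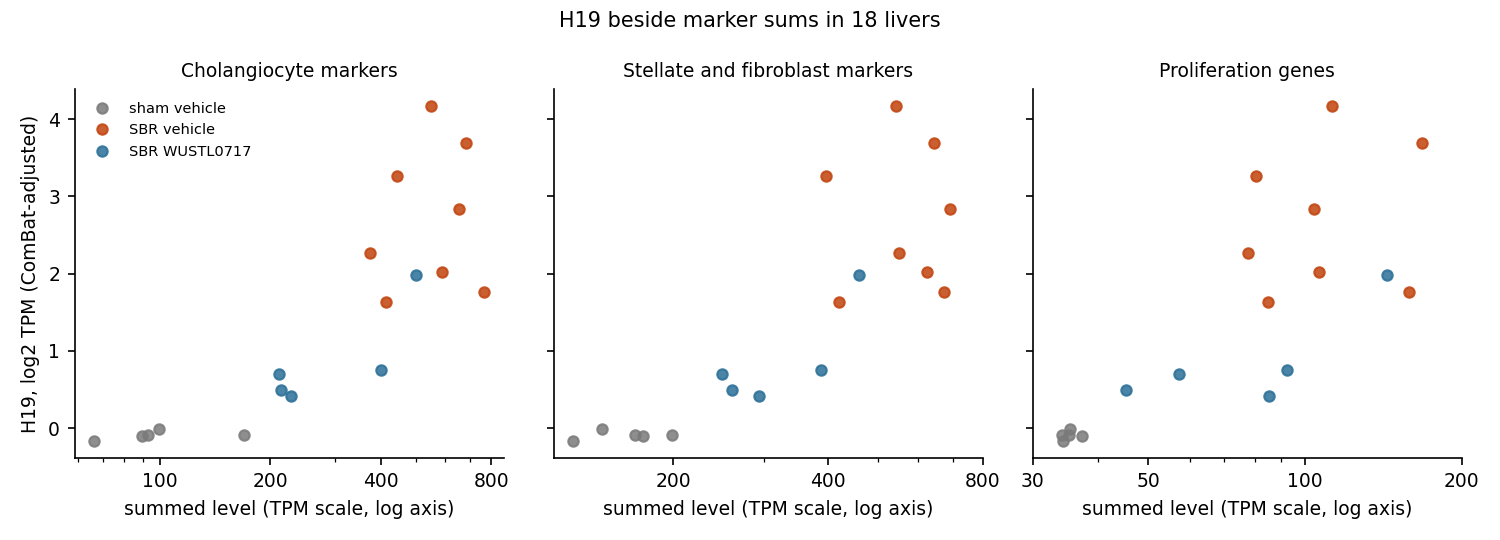
H19 (log2 TPM) against the summed level of 3 marker lists in each of the 18 livers. The sums are on a log axis, after undoing the logarithm of the adjusted values. Colours give the groups. Sham livers lie low in both, and among the 8 SBR vehicle livers H19 runs from 1.63 to 4.17 and r with the sums is 0.13, -0.01 and 0.20.

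Within the 8 SBR vehicle livers, no relation of H19 to these markers was detectable. Pearson's r was 0.13 with the log2 cholangiocyte sum (exact permutation p = 0.746, Spearman's rho 0.10, p = 0.840) and -0.01 with the stellate cell and fibroblast sum (exact p = 0.984, rho -0.07, p = 0.882). For proliferation genes r was 0.20 (exact p = 0.629, rho 0.24, p = 0.582). Without the 2 livers farthest from the median of H19, these r values were -0.12, -0.21 and -0.40. Of 9 marker lists examined this way, intestinal epithelium gave the highest r, 0.29 (exact p = 0.489, rho 0.45, p = 0.267), and every adjusted p was at least 0.977. SBR vehicle replicate 4, with the highest cholangiocyte sum at 765, had the second lowest H19 of its group, 1.76. With 8 libraries only a strong relation could have been seen.

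Afp, in contrast to H19, overlapped between all groups. Sham livers were at 1.55, 1.27, 1.66, 1.63 and 1.90, with a mean of 1.60 ± 0.23 (SD, n = 5). SBR vehicle livers, replicates 1 to 8, were at 1.67, 1.21, 1.96, 2.10, 1.94, 1.66, 2.26 and 2.30, with a mean of 1.89 ± 0.36 (SD, n = 8). Treated livers were at 1.69, 2.22, 2.22, 2.42 and 1.58, with a mean of 2.03 ± 0.37 (SD, n = 5).

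The Afp difference after resection was 0.28 (SE 0.18, adjusted p = 0.217 by limma over all genes, exact permutation p = 0.150), with 7 of 8 SBR vehicle livers above the sham mean. It became -0.023 when each library was centred on its median and -0.052 after quantile normalization, and 0.38 without SBR vehicle replicate 2 (adjusted p = 0.0530 by limma). The median difference over all genes was itself 0.25, close to that of Afp. With the drug, Afp differed by 0.14 from SBR vehicle (SE 0.18, adjusted p = 0.788 by limma, exact p = 0.520), against -1.84 for H19, and by -0.16 with library weights. Treated livers were 0.42 above sham (SE 0.20, adjusted p = 0.112 by limma, exact p = 0.0714), where the median of all genes was 0.27. Over the 11 exact tests made for the 2 genes, the smallest adjusted p was 0.314.

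Nor was a relation between the 2 genes detectable from mouse to mouse. In the 8 SBR vehicle livers Pearson's r between H19 and Afp was 0.07 (exact permutation p = 0.878 over all pairings) and Spearman's rho was -0.21 (exact p = 0.619). Without the 2 livers farthest from the median of H19, r was -0.17. The liver with the most Afp in this group, replicate 8 at 2.30, had the least H19, 1.63. In the liver with the most H19, replicate 7 at 4.17, Afp was 2.26.

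None of the 3 measured neighbours of Afp in the albumin cluster was higher after resection. Afm, the vitamin E-binding plasma protein afamin, was lower by -0.71 after resection (SE 0.14, adjusted p = 0.000651 by limma). Alb differed by -0.24 (SE 0.19, adjusted p = 0.339) and Gc, the vitamin D-binding protein, by -0.19 (SE 0.13, adjusted p = 0.256). After centring all 3 passed as lower, where 28.8% of all genes did. With the drug none of these 3 genes passed, where 4.1% of all genes did. After centring 1 of them was higher and 0 lower with the drug, where 11.5% and 8.19% of all genes were. Without centring, the medians of the 3 genes were -0.24 after resection and 0.25 with the drug, against 0.25 and 0.02 for all genes.

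The repressors of Afp and H19 named above did not pass in either comparison. Zhx2 was at 4.70 ± 0.14 in sham, 4.75 ± 0.18 in SBR vehicle and 4.88 ± 0.12 in treated livers (SD, n = 5, 8 and 5), with differences of 0.05 (SE 0.09, adjusted p = 0.696 by limma) after resection and 0.13 (SE 0.09, adjusted p = 0.529) with the drug. Zbtb20 was at 4.53 ± 0.19, 4.73 ± 0.20 and 4.77 ± 0.21, and differed by 0.20 (SE 0.11, adjusted p = 0.172) and 0.04 (SE 0.11, adjusted p = 0.921). When each library was centred on its median the difference after resection became -0.26 for Zhx2, which then passed (adjusted p = 0.00111), and -0.11 for Zbtb20. Of the 14 transcription factors listed for these genes, 2 were higher after resection, 1 was lower and 11 did not pass, where 37.4% of all genes were higher and 4.47% lower. Their median was 0.00 against 0.25 for all genes. The 2 were Trp53, the p53 tumour suppressor, by 0.71 (SE 0.14, adjusted p = 0.000488), and Onecut1, a hepatobiliary factor of development, by 0.98 (SE 0.32, adjusted p = 0.0182), a call lost after centring and without sham replicate 2. Cebpa, a driver of the mature hepatocyte program, was lower by -0.48 (SE 0.13, adjusted p = 0.00733). After centring, 1 was higher and 9 were lower, where 20.4% and 28.8% of all genes were. With the drug none of the 14 passed, where 4.1% of all genes did. After centring 4 were higher and 1 lower, against 11.5% and 8.19% of all genes.

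Other genes that mark fetal or tumorous liver were mostly higher after resection. Of 19 listed, 9 were measured, and 8 of the 9 were higher in SBR vehicle than in sham livers, where 37.4% of all genes were, with a median difference of 1.13 against 0.25 for all genes. The 8 stayed higher after centring. Cd24a, a surface glycoprotein of progenitor and biliary cells, was at 2.98 to 3.92 in sham, 5.45 to 6.48 in SBR vehicle and 4.28 to 5.93 in treated livers. Its difference was 2.59 after resection (SE 0.24, adjusted p = 1.53e-07 by limma) and -1.08 with the drug (SE 0.24, adjusted p = 0.0175). Sox4, a transcription factor of developing and biliary epithelium, was at 1.95 to 2.31, 3.79 to 4.48 and 2.82 to 4.10 in the same order. It differed by 2.08 (SE 0.16, adjusted p = 3.06e-08) and by -0.72 (SE 0.16, adjusted p = 0.0184). Sham and SBR vehicle livers did not overlap in either gene, as in 17.2% of all genes.

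Metabolic members of the list passed after resection and not with the drug. Scd2, a fatty acid desaturase that is low in adult liver, differed by 2.51 after resection (SE 0.27, adjusted p = 9.83e-07 by limma) and by -0.24 with the drug (SE 0.27, adjusted p = 0.752). Hk2, the hexokinase of fetal and tumour cells, differed by 1.13 (SE 0.10, adjusted p = 6.41e-08) and by -0.09 (SE 0.10, adjusted p = 0.721). Pkm and Aldoa, glycolytic enzymes of the fetal type, and Hmga1, a chromatin protein, were also higher after resection, by 1.10, 0.69 and 0.66, and did not pass with the drug. Ccnd2, a cyclin, was higher by 1.17 and lower by -0.49 with the drug (SE 0.13, adjusted p = 0.0381). Igf2bp2, a binding protein of Igf2 messenger RNA, differed by 0.30 after resection and did not pass (adjusted p = 0.136). With the drug 3 of the 9 were thus lower, where 2.66% of all genes were, 6 did not pass and the median was -0.24 against 0.02 for all genes. The drug calls of Cd24a, Sox4 and Ccnd2 were lost without treated replicate 1, 2 or 3 and in the unmoderated test, and that of Ccnd2 also without any one of 9 further livers (treated replicate 5, SBR vehicle replicates 1, 4, 5, 6 and 7, and sham replicates 1, 3 and 5). In H19, Cd24a, Sox4, Ccnd2, Scd2 and Hk2 alike, replicate 4 held the highest value of the 5 treated livers. In treated against sham livers, where 28.8% of all genes passed (27.9% higher and 0.906% lower), 8 of the 9 were still higher. Centring turned the split of all genes in that comparison from 4436 higher and 144 lower to 1700 and 1420 (10.7% and 8.93%), and 7 of the 9 were then higher.

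**Figure D3:**
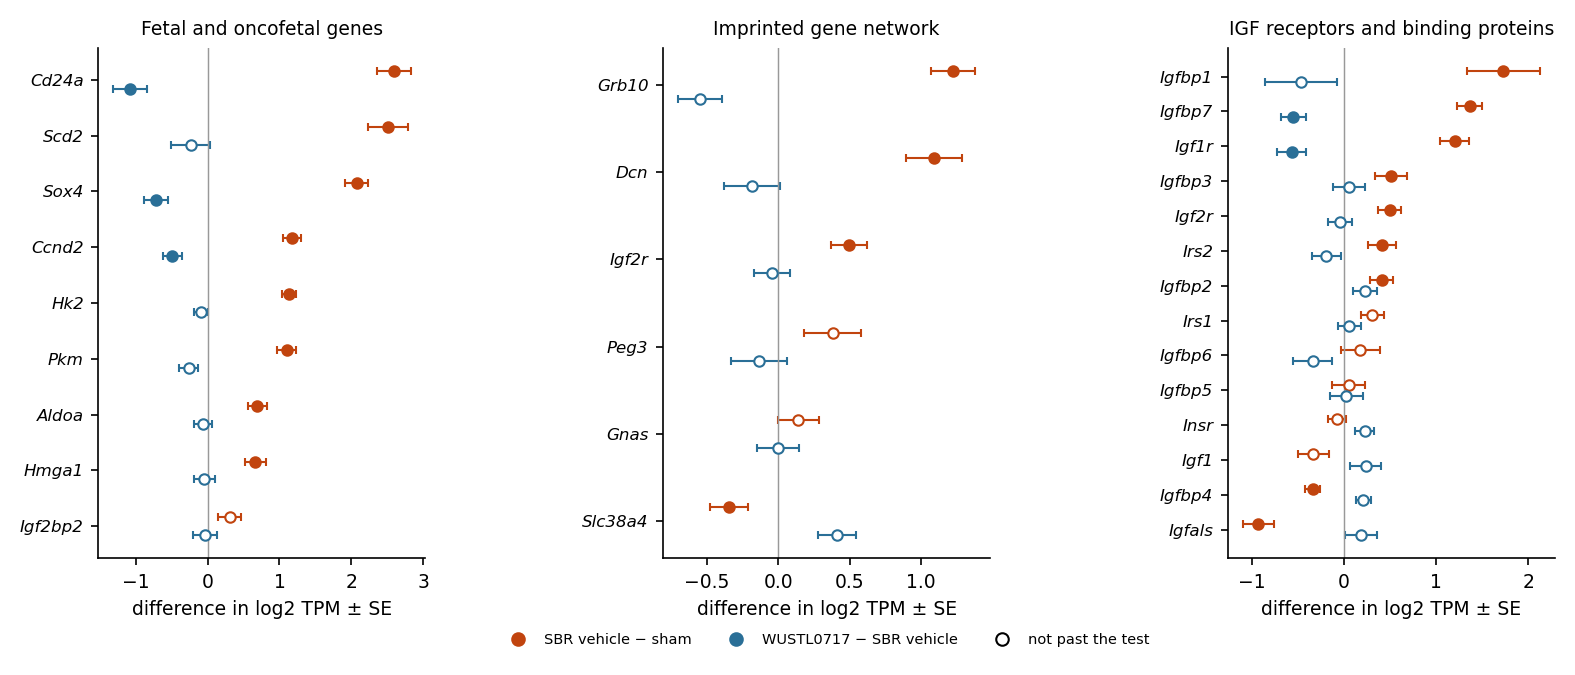
Differences in log2 TPM with their SE in liver for 3 gene lists, SBR vehicle minus sham in red and SBR WUSTL0717 minus SBR vehicle in blue. Filled points passed an adjusted p of 0.05 by limma. Most fetal genes lie to the right after resection, and Cd24a, Sox4 and Ccnd2 also pass to the left with the drug.

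The genes around H19 differed unevenly. Of 21 listed neighbours in its domain and in the adjoining Kcnq1 domain, 11 were measured, of which 8 were higher after resection and none lower, where 37.4% of all genes were higher. Their median difference was 0.34 against 0.25 for all genes. Without sham replicate 2 the count was 5, and after centring 4 were higher and 2 were lower, where 20.4% and 28.8% of all genes were. Mrpl23, a mitochondrial ribosomal protein gene that starts 45.5 kb downstream of the H19 start along the H19 strand, differed by 0.34 (SE 0.13, adjusted p = 0.0378 by limma) and by 0.03 after centring, a call also lost without any one of 8 livers (sham replicates 2, 3 and 5, and SBR vehicle replicates 4 to 8). Lsp1, a leukocyte actin-binding protein gene 117 kb downstream, differed by 1.25 after resection (SE 0.12, adjusted p = 2.9e-07) and by -0.54 with the drug (SE 0.12, adjusted p = 0.0185). Ctsd, the lysosomal protease cathepsin D, 190.1 kb downstream, differed by 0.61 (SE 0.13, adjusted p = 0.000953) and by 0.17 with the drug (SE 0.13, adjusted p = 0.575).

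On the other side Cd81, a tetraspanin gene 475 kb upstream, differed by 0.00 (SE 0.13, adjusted p = 0.989), and by -0.30 after centring. Kcnq1, a potassium channel gene 528 kb upstream, differed by 1.28 (SE 0.17, adjusted p = 9.3e-06 by limma) and by -0.77 with the drug (SE 0.17, adjusted p = 0.0186). Kcnq1ot1, the paternally expressed antisense RNA of that domain, differed by 0.58 (SE 0.13, adjusted p = 0.00175) and by -0.17 with the drug (SE 0.13), which did not pass. H19 was chosen by its 2 liver differences, so its larger size beside these 11 genes is only a description. With the drug only Lsp1 and Kcnq1 passed, both lower, where 2.66% of all genes were. Those 2 calls were lost without treated replicate 1, 2 or 3. After centring, 3 of the 11 were higher with the drug and 2 lower, where 11.5% and 8.19% of all genes were.

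**Figure D4:**
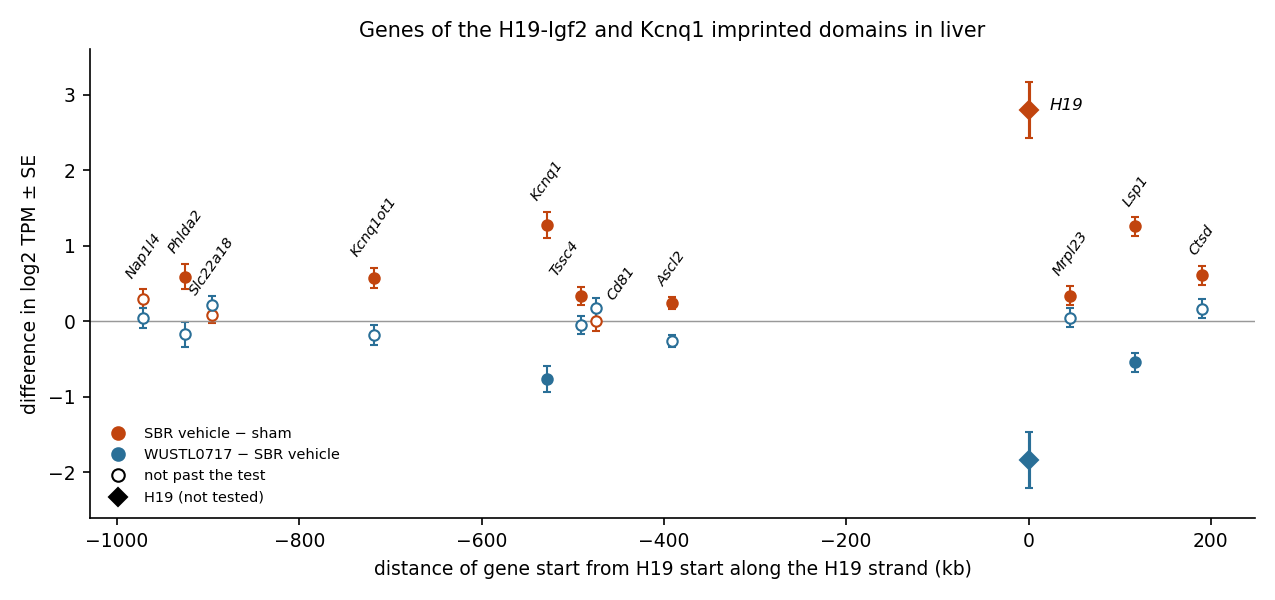
Differences in log2 TPM with their SE for genes of the H19 and Kcnq1 domains in liver, by the distance of each gene start from the H19 start in kb along the H19 strand. Diamonds are H19, which was chosen by these differences and not tested. Filled circles passed an adjusted p of 0.05 by limma. H19 stands at 2.80 and -1.84, and its nearest measured neighbour, Mrpl23, at 0.34 and 0.05.

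Genes that are co-regulated with H19 in the imprinted gene network of the growing animal gave a mixed picture. Of 15 listed, 6 were measured, and Dlk1 and Meg3 were not analysed here. Grb10, an imprinted adaptor that restrains growth, was at 1.19 to 1.39 in sham and 2.00 to 2.93 in SBR vehicle livers, a difference of 1.22 (SE 0.15, adjusted p = 4.42e-06 by limma). In treated livers it was at 1.70 to 2.46, -0.55 from SBR vehicle (SE 0.15, adjusted p = 0.0508). Dcn, the matrix proteoglycan decorin, which is also one of the fibroblast markers above, was higher by 1.09 after resection (SE 0.20, adjusted p = 0.000209). Igf2r, the receptor that clears Igf2, was higher by 0.50 (SE 0.13, adjusted p = 0.00421). Slc38a4, an imprinted amino acid transporter of hepatocytes, was lower by -0.34 (SE 0.13, adjusted p = 0.0421), a call lost without any one of 8 livers (sham replicates 1, 3, 4 and 5, and SBR vehicle replicates 1, 3, 6 and 8). Peg3 and Gnas did not pass. Of the 6, 3 were thus higher and 1 lower after resection, where 37.4% and 4.47% of all genes were. With the drug none passed, where 4.1% of all genes did. The count was 1 without SBR vehicle replicate 2, 3, 4 or 8 or treated replicate 4. The list's medians were 0.44 and -0.09 against 0.25 and 0.02 for all genes. After centring 1 was higher and 1 lower with the drug, where 11.5% and 8.19% of all genes were.

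Of the 7 measured enzymes and factors that write, remove or protect imprint methylation, 5 were higher after resection and 1 was lower, where 37.4% of all genes were higher and 4.47% lower. Their median was 0.39 against 0.25 for all genes, and 0.08 after centring. Dnmt1, the maintenance methyltransferase, which also follows cell division, differed by 0.74 (SE 0.13, adjusted p = 0.00023 by limma), and Dnmt3a, a de novo enzyme, by 0.63 (SE 0.10, adjusted p = 8.73e-05). Tet2, an enzyme of demethylation, differed by 0.58 (SE 0.13, adjusted p = 0.0012). Zfp445, a zinc finger protein that guards imprints, was lower by -0.42 (SE 0.15, adjusted p = 0.0269). Ctcf, the insulator protein that binds the H19 control region, differed by 0.25 (SE 0.14, adjusted p = 0.169), the same as the median of all genes. After centring 3 of the 7 were higher and 1 was lower, where 20.4% and 28.8% of all genes were. None of the 7 passed with the drug, where 4.1% of all genes did. Methylation itself was not measured.

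In the insulin-like growth factor (IGF) axis, 7 of 14 genes, all measured, were higher after resection and 2 were lower, where 37.4% of all genes were higher and 4.47% lower. The median was 0.36 against 0.25 for all genes. After centring, 4 were higher and 4 lower, where 20.4% and 28.8% of all genes were. Igf1, the liver's main circulating growth factor, differed by -0.33 (SE 0.17, adjusted p = 0.124 by limma) and by 0.23 with the drug (SE 0.17, adjusted p = 0.548). Igfals, which holds IGF in the circulating ternary complex, was lower by -0.93 (SE 0.17, adjusted p = 0.000247) and stayed below sham in treated livers, by -0.74 (SE 0.19, adjusted p = 0.00826). Igfbp1, a binding protein induced by fasting and injury, was higher by 1.73 (SE 0.40, adjusted p = 0.00177) and ranged from 4.07 to 6.89 among SBR vehicle livers. Igf1r, the receptor for both growth factors, was higher by 1.20 (SE 0.16, adjusted p = 6.78e-06) and lower by -0.57 with the drug (SE 0.16, adjusted p = 0.0484). Igfbp7, a secreted relative of the binding proteins, was higher by 1.36 (SE 0.14, adjusted p = 4.07e-07) and lower by -0.55 (SE 0.14, adjusted p = 0.0302). Those 2 were the only genes of the 14 that passed with the drug, both lower, where 2.66% of all genes were. After centring 1 was higher and 2 were lower with the drug, where 11.5% and 8.19% of all genes were. The drug call of Igfbp7 was lost without treated replicate 2 or 3 or SBR vehicle replicate 1, 5, 6 or 7, and that of Igf1r without any one of the 5 sham livers, treated replicates 1, 2, 3 and 5, and SBR vehicle replicates 1, 4, 5, 6 and 7.

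Gpc3 has 5 other family members, of which 2 were measured. Gpc1 was higher by 1.16 after resection (SE 0.14, adjusted p = 2.89e-06 by limma) and 1.34 above sham in treated livers (SE 0.15, adjusted p = 2.1e-05). Gpc4 was lower by -0.26 after resection (SE 0.10, adjusted p = 0.0422), a call lost without any one of 9 livers (all sham but replicate 2, SBR vehicle replicates 3 and 5, and treated replicates 1, 2 and 5). Neither passed with the drug, where 4.1% of all genes did. After resection 37.4% of all genes were higher and 4.47% lower.

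The genes whose liver values most resembled H19 within groups were sought over all 18 livers after subtracting each group's mean. The 8 with the highest Pearson r were Mir7089 (0.78), H4f16 (0.78), Gm24727 (0.76), Nyap1 (0.76), Rncr4 (0.75), Gramd2 (0.75), Gm24840 (0.74) and Rnf208 (0.74). Several are small or unnamed noncoding genes, and Mir7089 sat at its lowest value, 0.69, in most sham livers. They were picked as the highest of nearly 15901 values over libraries that share their processing, so the coefficients are a description. Rnf208, a ring-finger ubiquitin ligase gene, was the one with the group pattern nearest in size to H19, at 1.03 in sham, 2.25 in SBR vehicle and 1.39 in treated livers. Only 9 fetal, 6 imprinted and 11 neighbouring genes stood among the 15901 tested, so their absence from the 8 says little about them.

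For Afp the 4 closest genes were Fmo4 (0.93), Inhba (0.91), E130311K13Rik (0.88) and Slc22a7 (0.88). They were picked in the same way, so these coefficients too are a description. SBR vehicle replicate 2, the library that stood apart, had the lowest value of its group in Afp and in all 4 genes. Fmo4 encodes a flavin monooxygenase, Inhba the activin A subunit and Slc22a7 an organic anion transporter. Slc22a7 was at 3.62 in sham, 2.15 in SBR vehicle and 2.68 in treated livers. No gene was among the closest to both H19 and Afp, and such short lists from so many genes would seldom share one.

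In the intestine no H19 difference passed. In the duodenum the sham libraries were at 1.57, 0.99 and 1.86, the SBR vehicle libraries at 1.20, 0.29, 0.70 and 0.93, and the treated libraries at 2.76, 0.79, 0.58 and 1.44. Each of the 4 SBR vehicle values was under the sham mean of 1.48, a difference of -0.69 (SE 0.46, adjusted p = 0.440 by limma, exact permutation p = 0.114), where the liver difference was 2.80. The median of all duodenal genes in this comparison was -0.36, and centring took H19 to -0.29. With the drug the difference was 0.61 (SE 0.43, adjusted p = 1 by limma, exact p = 0.343). It fell to 0.15 without treated replicate 1, the library at 2.76. In the same comparison 0.258% of the genes tested in duodenum passed (0.252% higher and 0.00663% lower). After resection 0% passed by limma, although 2426 of 15093 genes had an unadjusted p under 0.05 and the unmoderated test called 1.

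In the ileum H19 averaged below the level of 1 set for testing. Sham libraries were at 0.28, 0.45 and 0.75, SBR vehicle libraries at 0.15, 1.38, 0.43 and 1.09, and treated libraries at 0.82, 1.63, 0.51 and 1.26, so that every group overlapped the others. The differences were 0.27 after resection (exact permutation p = 0.486) and 0.29 with the drug (exact p = 0.486). Without the filter the adjusted p values by limma were 0.958 and 0.936. Beside them 0.349% (0.241% higher and 0.108% lower) and 0.0697% (all higher) of ileal genes passed.

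**Figure D5:**
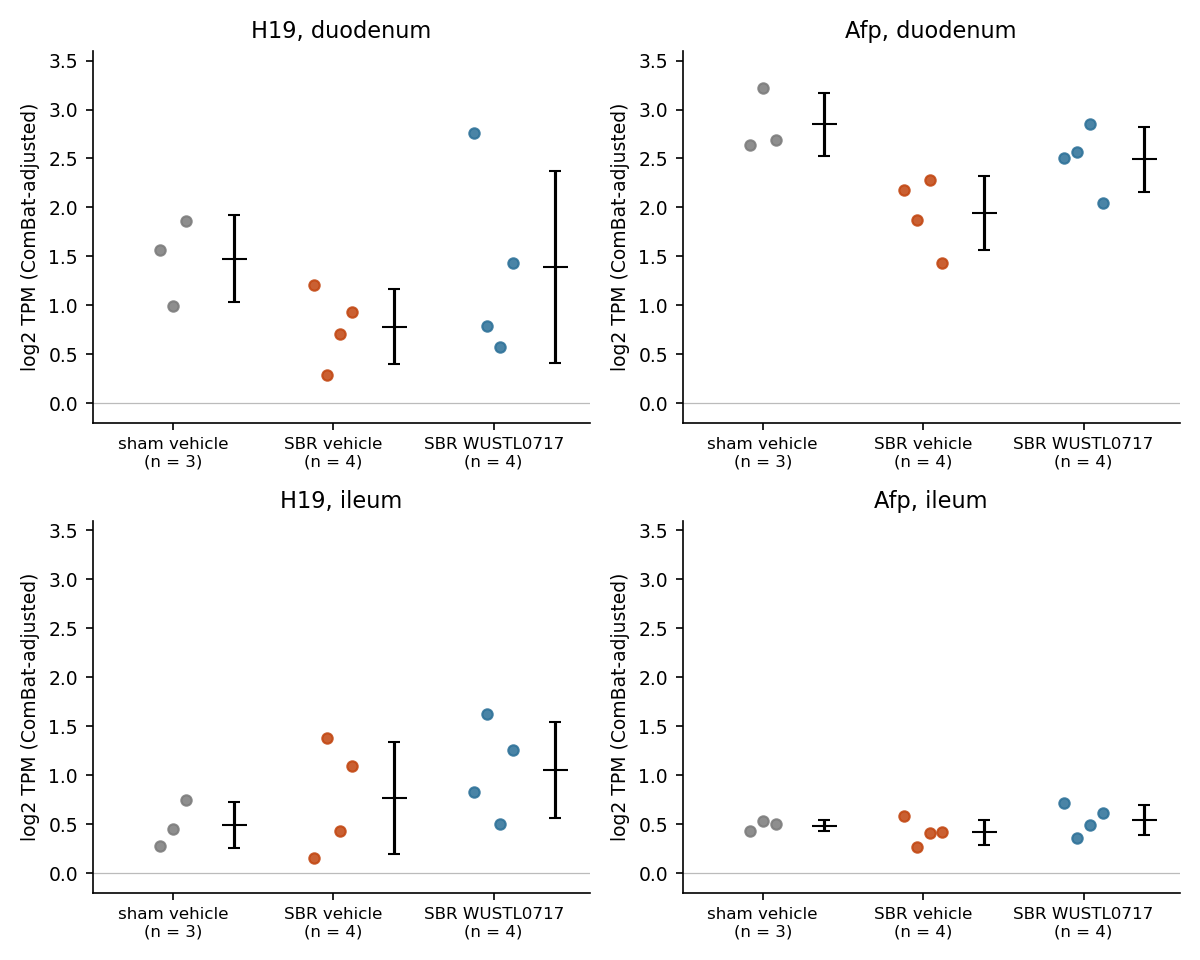
H19 and Afp in duodenum and ileum. Each point is one library (log2 TPM, adjusted for batch by the authors), with the group mean and SD in black. In the duodenum the 4 SBR vehicle libraries lie below the 3 sham libraries in Afp, and in the ileum all groups overlap in both genes.

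Afp was lower in the 4 SBR vehicle libraries of the duodenum than in every sham library, without passing over all genes. In that comparison 9.65% of duodenal genes had groups that did not overlap. Sham libraries were at 2.64, 3.22 and 2.69, SBR vehicle libraries at 2.18, 1.87, 2.28 and 1.43, and treated libraries at 2.51, 2.56, 2.85 and 2.05. The treated libraries overlapped both other groups. The difference between SBR vehicle and sham was -0.91 (SE 0.33, adjusted p = 0.275 by limma), and the exact permutation p was 0.0286, the smallest that 4 against 3 libraries can give, or 0.314 adjusted over the 11 exact tests. It was -0.50 after centring (adjusted p = 0.414) and -1.26 with library weights, the one setting in which it passed (adjusted p = 0.0266). With the drug Afp was 0.55 higher than in SBR vehicle in the duodenum (SE 0.31, adjusted p = 1 by limma, exact p = 0.0857), with all 4 treated libraries above the SBR vehicle mean. In the ileum Afp lay between 0.26 and 0.72 in all 11 libraries, with differences of -0.07 (exact p = 0.457) and 0.13 (exact p = 0.257). None of the genes of the fetal, imprinted, neighbour and IGF lists passed in either intestinal tissue, which says little about them. After resection and with the drug, 0% and 0.258% of all duodenal genes passed, and 0.349% and 0.0697% of ileal genes.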

How the data were processed

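The deposited values were log2 TPM in one table of 15958 genes and 40 libraries. Per the labels and the study's methods, the authors aligned reads with STAR to GRCm38 (Ensembl annotation), counted uniquely aligned reads with featureCounts, scaled them with edgeR factors, removed duplicate gene names and genes at 0 throughout, took log2 and adjusted the intestinal and liver batches with ComBat. Tissue and batch coincide. From these values, each tissue was fitted with limma 3.58.1 in R 4.3.3, all 3 groups together, with a variance trend, genes with a mean of at least 1, and Benjamini-Hochberg adjustment over all genes tested. A call is an adjusted p under 0.05. The study used two-sample tests, which are an alternative here. Single genes had exact two-sided permutation tests on the absolute difference of means. All p-values are two-sided. Summed marker levels are 2 to the value less 1, set to 0 where negative. The adjustment could rescale each gene, so these sums are not TPM and serve only to compare groups.

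The 4 genes and all lists were chosen with earlier results of these data known. Named genes are H19 and Afp, up to 4 called genes per list and comparison by smallest p, a few fixed regulators and neighbours, and the 8 and 4 genes most like H19 and Afp; other list genes are named where a count needs them, after their values were seen. The relations of H19 to marker sums were added after the data were seen. In simulated data, 98% of 200 genes changed by 2 were recovered in liver after resection, 34% in duodenum and 65% in ileum. Gene positions are from GENCODE M21.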

Additional observations from a re-analysis of the deposited data

Results flagged for a closer look

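Within groups of 4 to 10 libraries, a single value was far from the others, by Dixon's rule, in 26 of 236 groups of values examined, where chance alone gives about 1 in 20. H19 was one of these, since treated replicate 4, at 1.98, lay apart from the other 4 treated livers. That library was also the far value among treated livers for Grb10 at 2.46, Dnmt1 at 4.74, Zbtb20 at 5.13, Mcm2 at 4.02 and Spp1 at 6.31. Other far values among treated livers were Apoc3 in replicate 3 at 10.2, Sox9 in replicate 3 at 2.97 and Timd4 in replicate 1 at 1.68.

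Among SBR vehicle livers, replicate 2 was far below the others for Alb at 8.16, Afm at 2.67, Serpina1a at 5.02 and Trp53 at 4.09. Replicate 4 was far above them for Onecut1 at 4.00, Mcm2 at 4.31 and Mcm5 at 5.03, and replicate 7 for Gramd2 at 1.71. In the sham group the far values were Igfbp1 at 4.35 and Krt7 at 2.34 in replicate 4, Col1a1 at 4.60, Gpnmb at 0.56 and Mki67 at 2.55 in replicate 5, Mir7089 at 1.85 and Alas2 at 4.62 in replicate 3, Klf1 at 1.97 in replicate 2 and Vil1 at 5.03 in replicate 1.

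H19 differed in opposite directions after resection in liver (2.80) and duodenum (-0.69), with all 8 livers above and all 4 duodenal libraries below the sham mean of their tissue. H19 was chosen on the liver values, the tissues were separate batches, and the difference between them was not tested.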

How the results depend on the processing

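H19 in liver kept its direction under every alternative run, but not its size. Pseudocounts of 0.1 and 5 gave 5.76 and 1.13 after resection and -2.72 and -0.89 with the drug, and a pseudocount of 0.1 gave 3.04 for treated against sham. Leaving out one library at a time gave 2.59 to 2.95, -2.11 to -1.63 and 0.68 to 1.07.

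Afp in liver passed under none of them. It reversed after resection with libraries centred on their medians (-0.023) or quantile normalized (-0.052), and with the drug under library weights (-0.16). Adjusted p by limma ran from 0.0530 to 0.918, from 0.455 to 0.955 and from 0.0589 to 0.672 in the 3 comparisons. With one library left out the ranges were 0.20 to 0.38, 0.04 to 0.25 and 0.32 to 0.53. The H19 and Afp correlation reversed without SBR vehicle replicate 1, 2 or 7, and ran from -0.27 to 0.36.

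In duodenum Afp after resection passed with library weights (-1.26, adjusted p = 0.0266 by limma), and adjusted p otherwise reached 0.528. In ileum a pseudocount of 0.1 gave -0.23 and 0.36 for Afp. With one library left out, duodenal differences were -0.94 to -0.50 and 0.15 to 0.88 for H19 and -1.02 to -0.72 and 0.38 to 0.70 for Afp. Ileal ones were 0.06 to 0.47 and 0.08 to 0.49 for H19, and -0.12 to -0.02 and 0.07 to 0.19 for Afp. No member had a mean of 3, so that filter left no value.

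Counts of calls moved more. After resection the liver gave 6663, against 10462 with weights, 4180 with the filter at 3 and 1204 by an unadjusted p joined to a 2-fold size rule. With the drug it gave 652, against 3133 centred, 2635 quantile normalized, 2819 weighted, 334 with the filter at 3, 148 with the pair of groups alone, 90 by the fold rule and 0 in the unmoderated test, and 93 to 1075 with one library left out (176, 113 and 93 without treated replicates 1, 2 and 3, 408 without SBR vehicle replicate 1, 1075 without treated replicate 4). Treated against sham gave 4580, against 8387 weighted, 3120 centred and 467 by the fold rule, and 2456 to 6727 with one library left out (2688 without sham replicate 2, 2456 without treated replicate 4). In duodenum the counts ran from 0 to 2497 after resection and from 2 to 596 with the drug, and in ileum from 3 to 683 and from 1 to 491. Of the named genes called, 45 of 55 after resection, 0 of 18 with the drug and 32 of 43 for treated against sham passed under every alternative. None reversed.

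Libraries with one replicate number deviated together in some pairs and apart in others (r from -0.32 to 0.33). These values cannot show whether a number links libraries of different groups, and the main fits left the numbers out. With the replicate number as a block, H19 differed by 2.52, -1.56 and 0.96 and Afp by 0.17, 0.25 and 0.42 in liver, and ileal calls went from 55 to 12 and from 11 to 1, duodenal ones with the drug from 39 to 8. The causes of these changes were not tested.

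Depth is unknown, and a value near 0 cannot be told from no expression on this scale.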
